A study of Homo sapiens with 8 samples.

Results

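The squamous differentiation and cornified envelope genes are a set of 45 human genes, given by symbol, of which all 45 had a probe set naming that gene alone, among 19775 genes measured. They comprise 10 envelope precursors and cross-linked proteins, 3 transglutaminases and lipid enzymes, 6 S100 proteins, 7 kallikrein-related peptidases, 8 protease inhibitors, 8 secreted and surface proteins of differentiated layers, and 3 calmodulin-like and lipid-binding proteins. Keratins and desmosome genes were not part of the set. In stratified epithelia, cells that leave the basal layer build a cornified envelope under the plasma membrane, in which transglutaminases cross-link precursors such as involucrin and the small proline-rich (SPRR) proteins into an insoluble sheet. Kallikreins cut the contacts between the outermost cells, and serpins, cystatins and antileukoproteinases hold proteases in check. The 12 members on chromosome 1, namely the SPRR and S100 genes, IVL, CRNN and CRCT1, lie in the epidermal differentiation complex. Retinoic acid is known from keratinocyte culture as an agent that holds back terminal squamous differentiation.

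RNA was measured on 8 Affymetrix U133 Plus 2.0 arrays, 2 in each of 4 groups. The groups were trMCF clone 11 kept for 26 days in 1 μM all-trans retinoic acid (ATRA), trMCF clone 11 kept for 26 days in 10 μM ATRA, trMCF clone 11 without ATRA, and MCF-10F. MCF-10F is a spontaneously immortalized, normal-like human breast epithelial line, and trMCF clone 11 was grown out of a single ring-cloned colony of MCF-10F cells that had been transformed with a high dose of estradiol, so the clone stands for 1 colony. Nothing in the sources used here says that both arrays of any group were separate cultures, so p-values measure only the spread between these arrays, and although DMSO served as vehicle control in the ATRA experiments, the sources do not say whether the arrayed trMCF clone 11 cells had been given it. One characteristic in the labels calls trMCF clone 11 replicate 1 normal although its title names the clone, and the title was followed.

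Values are log2 of the linear signal intensity of a probe set, each gene stands for its brightest probe set by the mean over all arrays, and every difference is a log2 difference between group means, in the order the groups are named. A gene rose or fell where limma's moderated test gave a Benjamini-Hochberg adjusted p under 0.05 over all 54613 probe sets. The array medians lay between 47.3 and 48.8 signal units. All 4 general epithelial markers (EPCAM, CDH1, KRT8 and KRT18) were bright on every array, with summed signals of 22780 to 24100 at 1 μM, 22010 to 22050 at 10 μM, 23170 to 24980 in trMCF clone 11 and 24660 to 26380 in MCF-10F. The 4 measured leukocyte markers summed to 510.6 to 607.3 at 1 μM and 664.5 to 730.4 at 10 μM, against 198.3 to 269.6 in trMCF clone 11 and 125.1 to 471.1 in MCF-10F, but PTPRC, the common leukocyte antigen, was under 16 on every array and CD14 carried most of the sum except in MCF-10F replicate 1, where it was 49.1 beside 51.4 for CSF1R. The 4 endothelial markers summed to 671.5 to 851.6 and 920.3 to 1276 at 1 and 10 μM, against 218.4 to 348.7 in trMCF clone 11 and 185 to 1157 in MCF-10F, of which PECAM1 carried most and the other 3 were under 64 on every array. The sum of 14 proliferation genes was 44580 to 45780 and 46090 to 46400 in cells given 1 and 10 μM, against 23310 to 36770 in trMCF clone 11 and 30380 to 45520 in MCF-10F, and 5 of the 14 rose at 10 μM against the clone. The 4 measured basal mammary markers (KRT5, KRT14, ITGA6 and LAMB3) summed to 8557 to 9749 at 1 μM and 6416 to 7647 at 10 μM, against 18250 to 19530 in trMCF clone 11 and 13980 to 33490 in MCF-10F. Of these, KRT14, a basal keratin, fell by 6.66 (adjusted p = 0.00836) and ITGA6 by 1.05 (adjusted p = 0.0194) at 10 μM against the clone, and at 1 μM, where none of the 4 passed the test, KRT14 differed by -4.61 (adjusted p = 0.0663). The 7 fibroblast markers summed to 310.5 to 316.1 at 1 μM and 330.4 to 332.9 at 10 μM, against 468.2 to 684.1 in trMCF clone 11 and 1052 to 1783 in MCF-10F, and 4 of them were under 64 on every array. The part of these differences in the results below was not tested.

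Signals of the set covered a wide range in these breast cells. On every array 7 members were above 1024, namely PPL, S100A2, SLPI, SERPINB1, SERPINB5, CSTA and EMP1. On every array 11 were under 64: CRCT1, CRNN, TGM3, ALOX12B, S100A12, KLK11, KLK13, SBSN, CDSN, MAL and CALML3. Among these are corneodesmosin (CDSN), which glues cells of the horny layer together, cornulin (CRNN) and the epidermal lipoxygenase ALOX12B, the single member under 16 on all 8 arrays. S100A2, a calcium-binding protein of basal epithelial cells, had log2 signals of 13.78 and 13.79 at 1 μM, 13.62 and 13.76 at 10 μM, 14.04 and 14.25 in trMCF clone 11 and 14.34 and 14.28 in MCF-10F. EMP1, an epithelial membrane protein, had 13.26 and 13.18 at 1 μM, 13.21 and 13.03 at 10 μM, 12.94 and 13.09 in trMCF clone 11 and 13.17 and 13.16 in MCF-10F. SLPI, the secretory leukocyte protease inhibitor, had 12.86 and 12.70 at 1 μM, 13.02 and 13.01 at 10 μM, 12.89 and 11.91 in trMCF clone 11 and 12.62 and 13.30 in MCF-10F. None of these 3 genes passed the test in any comparison. Of the 45 members, 29 have 1 probe set and 16 have several, 74 in all.

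**Figure D1:**
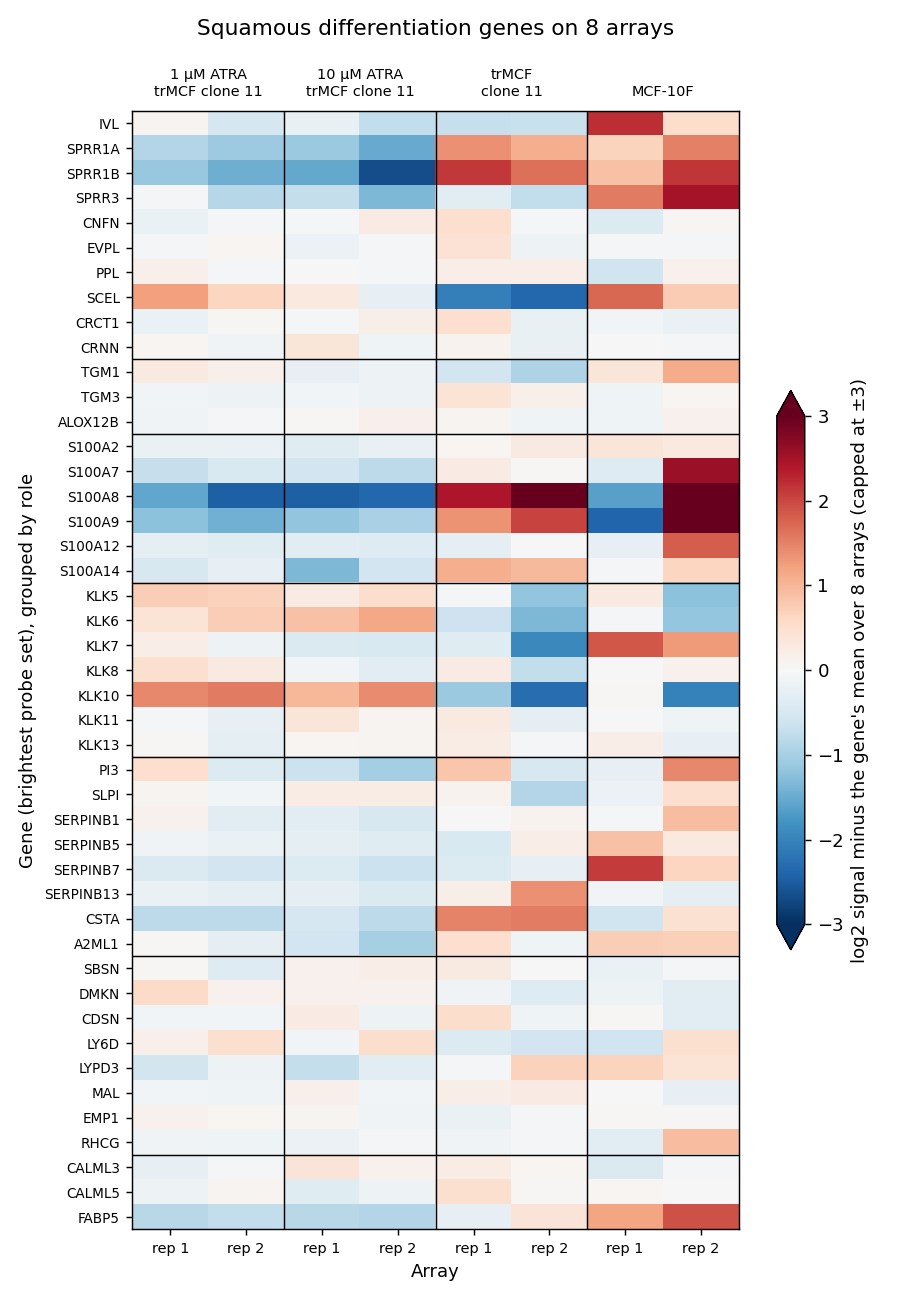
Log2 signal of each of the 45 members (rows, grouped by role) on each of the 8 arrays (columns), minus the gene's own mean over the 8 arrays, with the colour scale capped at ±3. SPRR1A, SPRR1B, S100A8, S100A9 and CSTA are blue on all 4 ATRA arrays and red in trMCF clone 11, KLK10 runs the other way, SCEL does so except on 10 μM replicate 2, which lies just below the gene's mean, and S100A8 and S100A9 take opposite colours on the MCF-10F arrays.

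ATRA moved a few envelope genes strongly and in opposite directions, and most of the set did not pass the test. In bulk RNA, fewer cells of a type and less RNA per cell cannot be told apart, here and throughout. At 1 μM against trMCF clone 11, 1 member rose (SCEL) and 3 fell (SPRR1B, SPRR1A at its brighter probe set, and CSTA), which is 2.22% and 6.67% of the members against 0.971% and 0.925% of all genes. At 10 μM, 3 rose (SCEL, KLK6 and KLK10) and 4 fell (SPRR1A, SPRR1B, S100A14 and CSTA), which is 6.67% and 8.89% of the members against 3.94% and 3.89% of all genes. Both doses are set against the same 2 arrays of trMCF clone 11, so the 2 comparisons are not independent. The median difference of the 45 members was -0.18 at 1 μM and -0.19 at 10 μM, against -0.06 and -0.01 over all genes. At the looser rule of a 2-fold difference and an unadjusted p under 0.05, 3 members were higher and 6 lower at each dose, against 4.87% and 3.02% of genes at 1 μM and 4.66% and 3.67% at 10 μM.

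The SPRR proteins are small, glutamine- and proline-rich substrates of transglutaminases that serve as bridges in the envelope. SPRR1B had log2 signals of 7.65 and 7.32 at 1 μM, 7.25 and 6.13 at 10 μM, 10.92 and 10.46 in trMCF clone 11 and 9.67 and 10.95 in MCF-10F. All 4 ATRA arrays lay below all 4 others, with no overlap between them. SPRR1B fell 9.18-fold at 1 μM (log2 difference -3.20, SE 0.43, adjusted p = 0.0394) and also fell at 10 μM (-4.00, SE 0.49, adjusted p = 0.00883) against trMCF clone 11. The clone itself did not differ detectably from MCF-10F in SPRR1B (0.38, 95% interval -0.67 to 1.43, adjusted p = 0.698).

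The brighter probe set of SPRR1A gave the same picture, and its second probe set did not. The brighter one, of a type (_x_at) with probes that can also match other transcripts, had 6.81 and 6.60 at 1 μM, 6.57 and 6.18 at 10 μM, 9.06 and 8.78 in trMCF clone 11 and 8.36 and 9.19 in MCF-10F, with a difference from the clone of -2.22 at 1 μM (adjusted p = 0.0393) and of -2.54 at 10 μM (adjusted p = 0.00734). The second probe set had 6.30 and 6.44 at 1 μM, 5.75 and 5.62 at 10 μM, 7.05 and 5.41 in trMCF clone 11 and 9.29 and 9.46 in MCF-10F. On this probe set the MCF-10F arrays stood alone at the top, and the ATRA arrays lay between or beside those of the clone. It fell by 3.15 in trMCF clone 11 against MCF-10F (adjusted p = 0.0373), while ATRA gave 0.14 at 1 μM (adjusted p = 0.917) and -0.55 at 10 μM (adjusted p = 0.605) against the clone. How the fall of SPRR1A under ATRA divides between SPRR1A and the closely related SPRR1B transcript was not tested, since single probe values were not used here.

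SPRR3, a small proline-rich protein of the oral and oesophageal lining, followed the pattern of the second SPRR1A probe set. It had 6.56 and 5.73 at 1 μM, 5.88 and 5.24 at 10 μM, 6.27 and 5.85 in trMCF clone 11 and 8.15 and 9.09 in MCF-10F, so that only the MCF-10F arrays were high. SPRR3 fell 5.89-fold in trMCF clone 11 against MCF-10F (-2.56, SE 0.41, adjusted p = 0.0372), and its second probe set fell by 1.92 (adjusted p = 0.043). ATRA brought no detectable change against the clone in the brighter probe set, also of the _x_at type, with 0.08 at 1 μM (adjusted p = 0.939) and -0.50 at 10 μM (adjusted p = 0.591). The second probe set differed by 0.22 (adjusted p = 0.774) and 0.70 (adjusted p = 0.316), so the 2 probe sets had opposite signs at 10 μM.

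**Figure D2:**
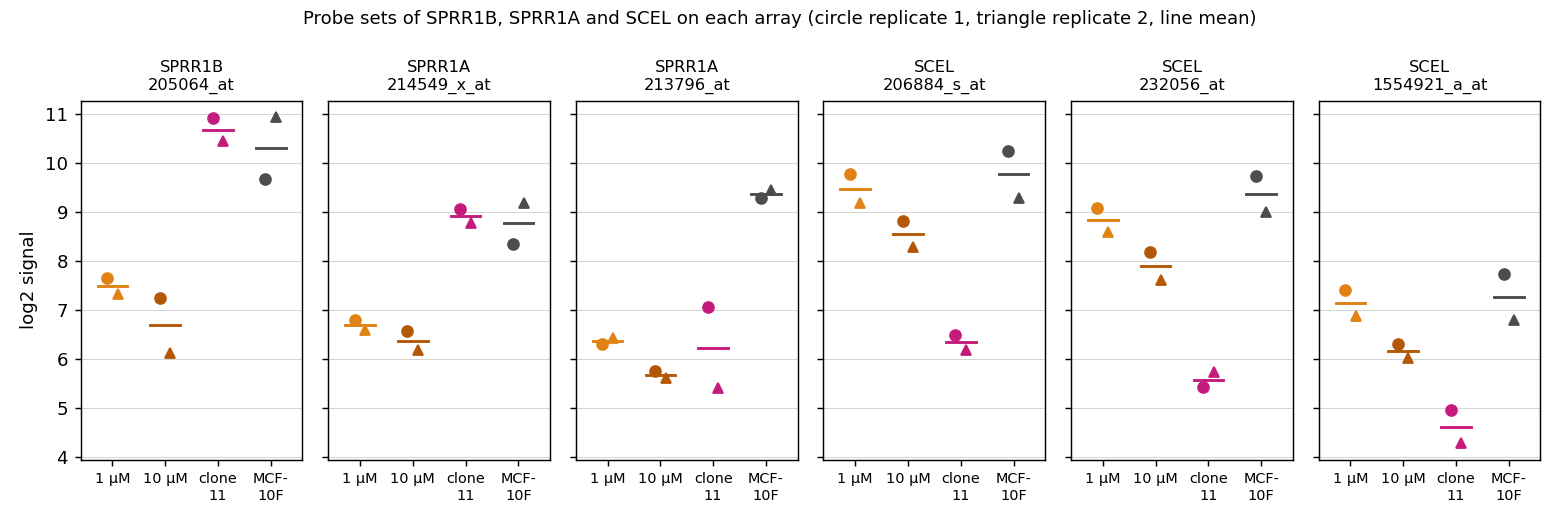
Log2 signal (vertical axis) of the probe set of SPRR1B, both probe sets of SPRR1A and 3 probe sets of SCEL on each array, by group along the horizontal axis (1 μM and 10 μM ATRA, trMCF clone 11, MCF-10F), with circles for replicate 1, triangles for replicate 2 and a line at the mean. SPRR1B and the first SPRR1A probe set are low under ATRA alone, the second SPRR1A probe set is high in MCF-10F alone, and the 3 SCEL probe sets shown are low in trMCF clone 11 alone. The dimmest SCEL probe set is not shown.

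Sciellin (SCEL), a precursor that is cross-linked into the envelope, ran opposite to SPRR1B. SCEL had 9.78 and 9.19 at 1 μM, 8.82 and 8.28 at 10 μM, 6.49 and 6.18 in trMCF clone 11 and 10.26 and 9.30 in MCF-10F. The 2 clone arrays lay below all of the other 6. SCEL fell 10.9-fold in trMCF clone 11 against MCF-10F (-3.44, SE 0.37, adjusted p = 0.017), and rose 8.83-fold at 1 μM (3.14, SE 0.37, adjusted p = 0.0293) and 4.64-fold at 10 μM (2.21, SE 0.36, adjusted p = 0.0194) against the clone. Set against MCF-10F directly, SCEL differed by -0.30 at 1 μM (95% interval -1.20 to 0.60, adjusted p = 0.92) and by -1.23 at 10 μM (95% interval -2.08 to -0.38, adjusted p = 0.174). Its second brightest probe set moved likewise, by -3.79 in the clone and by 3.26 and 2.32 at 1 and 10 μM (adjusted p = 0.00873, 0.0197 and 0.0115). The dimmest SCEL probe set, with a mean of 2.56 over all arrays, differed by only -0.15 in the clone and by 0.18 and 0.00 at 1 and 10 μM.

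The 250 bases before the transcription start of SPRR1A, SPRR1B, SPRR3 and SCEL are shown because the first 3 are neighbours in 1 gene cluster that did not move together, and SCEL is the member that fell in the clone and rose under ATRA. They are RefSeq sequences of GRCh38.p14, all on the plus strand, at chr1:152983831-152984080 (SPRR1A), chr1:153030953-153031202 (SPRR1B), chr1:153001499-153001748 (SPRR3) and chr13:77535456-77535705 (SCEL). Capitals mark TGANTCA, which reads the same on both strands and takes in the letters that AP-1, a Fos and Jun dimer, is known to bind.
SPRR1A: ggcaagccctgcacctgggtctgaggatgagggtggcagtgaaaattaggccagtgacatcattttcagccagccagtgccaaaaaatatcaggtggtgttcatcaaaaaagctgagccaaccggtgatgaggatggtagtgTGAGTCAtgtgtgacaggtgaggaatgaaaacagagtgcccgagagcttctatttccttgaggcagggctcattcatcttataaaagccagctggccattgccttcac
SPRR1B: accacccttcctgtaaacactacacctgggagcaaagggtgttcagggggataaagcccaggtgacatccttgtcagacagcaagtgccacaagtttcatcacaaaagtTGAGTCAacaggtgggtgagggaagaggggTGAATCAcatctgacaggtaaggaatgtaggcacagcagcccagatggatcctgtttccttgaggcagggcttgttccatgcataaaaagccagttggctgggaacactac
SPRR3: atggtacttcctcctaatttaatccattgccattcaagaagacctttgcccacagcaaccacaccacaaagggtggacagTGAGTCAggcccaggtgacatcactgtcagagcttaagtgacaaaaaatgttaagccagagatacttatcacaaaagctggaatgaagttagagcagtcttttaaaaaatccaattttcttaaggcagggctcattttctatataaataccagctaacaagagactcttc
SCEL: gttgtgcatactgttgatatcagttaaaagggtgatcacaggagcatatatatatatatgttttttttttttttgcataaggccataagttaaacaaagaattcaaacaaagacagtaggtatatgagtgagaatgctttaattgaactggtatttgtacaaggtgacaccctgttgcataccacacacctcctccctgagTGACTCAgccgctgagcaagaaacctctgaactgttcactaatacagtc
Counted back from the start, where -1 is the last base printed, the motif began at -108 in SPRR1A, at -141 and -111 in SPRR1B, at -170 in SPRR3 and at -49 in SCEL. Of the 45 members 34 had a promoter in the table used here, and TGANTCA was in the 250 bases of 14 of them (41.2%), against 8.06% of 27305 genes. In a global alignment the SPRR1A window shared 65.0% of its columns with that of SPRR1B and 53.6% with that of SPRR3, against 44.3% with that of SCEL. A match is a string of letters in the sequence, and no binding was measured here.

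None of the other envelope precursors passed the test. Involucrin (IVL), the classic early envelope precursor, had 6.26 and 5.69 at 1 μM, 5.96 and 5.46 at 10 μM, 5.50 and 5.51 in trMCF clone 11 and 8.41 and 6.70 in MCF-10F. Both MCF-10F arrays were above the other 6, but they lay 1.70 apart, and the difference of -2.06 in the clone did not pass the test (adjusted p = 0.106). Periplakin (PPL) and envoplakin (EVPL), plakins that anchor the envelope to the cell's edge, differed by at most 0.44 in size between trMCF clone 11 and the groups set against it. Cornifelin (CNFN), CRCT1 and CRNN gave adjusted p-values of 0.443, 0.622 and 0.965 in the clone against MCF-10F, and none of the 3 passed the test at either dose.

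Among the cross-linking enzymes, transglutaminase 1 (TGM1), the membrane-bound enzyme of the envelope, came nearest to the threshold. TGM1 had 7.97 and 7.87 at 1 μM, 7.45 and 7.55 at 10 μM, 7.13 and 6.78 in trMCF clone 11 and 8.06 and 8.81 in MCF-10F, with no overlap between any 2 of these groups. Its differences were -1.48 in the clone against MCF-10F (adjusted p = 0.0505), and 0.97 at 1 μM (adjusted p = 0.146) and 0.55 at 10 μM (adjusted p = 0.283) against the clone. TGM3 and ALOX12B were dim, with differences between -0.40 and 0.31 in these 3 comparisons.

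CSTA, the cystatin A that inhibits cysteine proteases and is itself built into the envelope, had its highest signals in the clone. It had 10.69 and 10.69 at 1 μM, 10.98 and 10.70 at 10 μM, 12.98 and 13.01 in trMCF clone 11 and 10.88 and 11.95 in MCF-10F. Both clone arrays stood above all the others. CSTA fell 4.95-fold at 1 μM (-2.31, SE 0.34, adjusted p = 0.0451) and 4.45-fold at 10 μM (-2.15, SE 0.32, adjusted p = 0.0145) against the clone, while the clone against MCF-10F gave 1.58 (adjusted p = 0.0682). Of the other protease inhibitors (PI3, SLPI, SERPINB1, SERPINB5, SERPINB7, SERPINB13 and A2ML1) none passed the test in these 3 comparisons. SERPINB7 had 5.37 and 5.23 at 1 μM, 5.40 and 5.16 at 10 μM, 5.40 and 5.56 in trMCF clone 11 and 7.90 and 6.44 in MCF-10F, and its difference of -1.69 in the clone had an adjusted p of 0.108. SERPINB13, a serpin of stratified epithelium also called headpin, was dim, with 4.45 and 4.38 at 1 μM, 4.39 and 4.23 at 10 μM, 4.82 and 6.01 in trMCF clone 11 and 4.58 and 4.36 in MCF-10F. Its means of 4.41 and 4.31 at 1 and 10 μM, against 5.42 in the clone (adjusted p = 0.236 and 0.117), stood beside clone arrays that were 1.19 apart, and its other 5 probe sets, all dimmer, differed by -0.70 to 0.17 at 1 μM (3 of them lower) and by -0.76 to 0.47 at 10 μM (4 lower), none past the test.

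Among the S100 members, S100A8 had the largest difference in size of all 45 members at both doses, and it did not pass the test. S100A8 and S100A9 form calprotectin, a calcium-binding alarmin of neutrophils and of stressed epithelium. S100A8 had 7.57 and 6.69 at 1 μM, 6.67 and 6.76 at 10 μM, 11.55 and 12.25 in trMCF clone 11 and 7.49 and 14.04 in MCF-10F. S100A9 had 8.14 and 7.93 at 1 μM, 8.19 and 8.41 at 10 μM, 10.72 and 11.41 in trMCF clone 11 and 6.98 and 13.17 in MCF-10F. All ATRA arrays lay well below both clone arrays for either gene, and the MCF-10F arrays took the lowest and the highest place for S100A9 and straddled the clone for S100A8. Against the clone, S100A8 differed by -4.77 at 1 μM (adjusted p = 0.267) and -5.18 at 10 μM (adjusted p = 0.146), and S100A9 by -3.02 (adjusted p = 0.441) and -2.77 (adjusted p = 0.429).

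The MCF-10F arrays entered those fits as part of the shared spread, and they were 94.1-fold apart in S100A8 and 72.7-fold apart in S100A9, the widest and next widest gaps of all 19775 genes. A fit of the 6 trMCF clone 11 arrays alone, chosen after seeing the data, gave the same differences with adjusted p-values of 0.00339 and 0.00257 for S100A8 and of 0.00421 and 0.00501 for S100A9 at 1 and 10 μM. In that fit 4 members were higher and 6 lower at 1 μM, against 5.14% and 4.02% of genes, and 3 were higher and 7 lower at 10 μM, against 4.68% and 4.49% of genes. Beside the members called before, it called TGM1, S100A8, S100A9, S100A14, KLK6 and KLK10 at 1 μM, and S100A7, S100A8 and S100A9 at 10 μM.

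S100A14, an S100 protein of epithelial surfaces, had a smaller gap between arrays. It had 10.73 and 10.97 at 1 μM, 9.88 and 10.63 at 10 μM, 12.30 and 12.19 in trMCF clone 11 and 11.16 and 11.87 in MCF-10F. S100A14 fell 3.97-fold at 10 μM (-1.99, SE 0.31, adjusted p = 0.0169), and the difference at 1 μM was -1.39 (SE 0.26, adjusted p = 0.0636). S100A7 (psoriasin, an antimicrobial protein) was dim apart from MCF-10F replicate 2, which had 7.72, against 4.74 in MCF-10F replicate 1. S100A12, under 64 signal units on every array, was also highest in MCF-10F replicate 2, with 5.77 against 3.70 in replicate 1. S100A7 lay at 4.42 and 4.66 at 1 μM and at 4.55 and 4.35 at 10 μM, against 5.37 and 5.16 in trMCF clone 11.

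**Figure D3:**
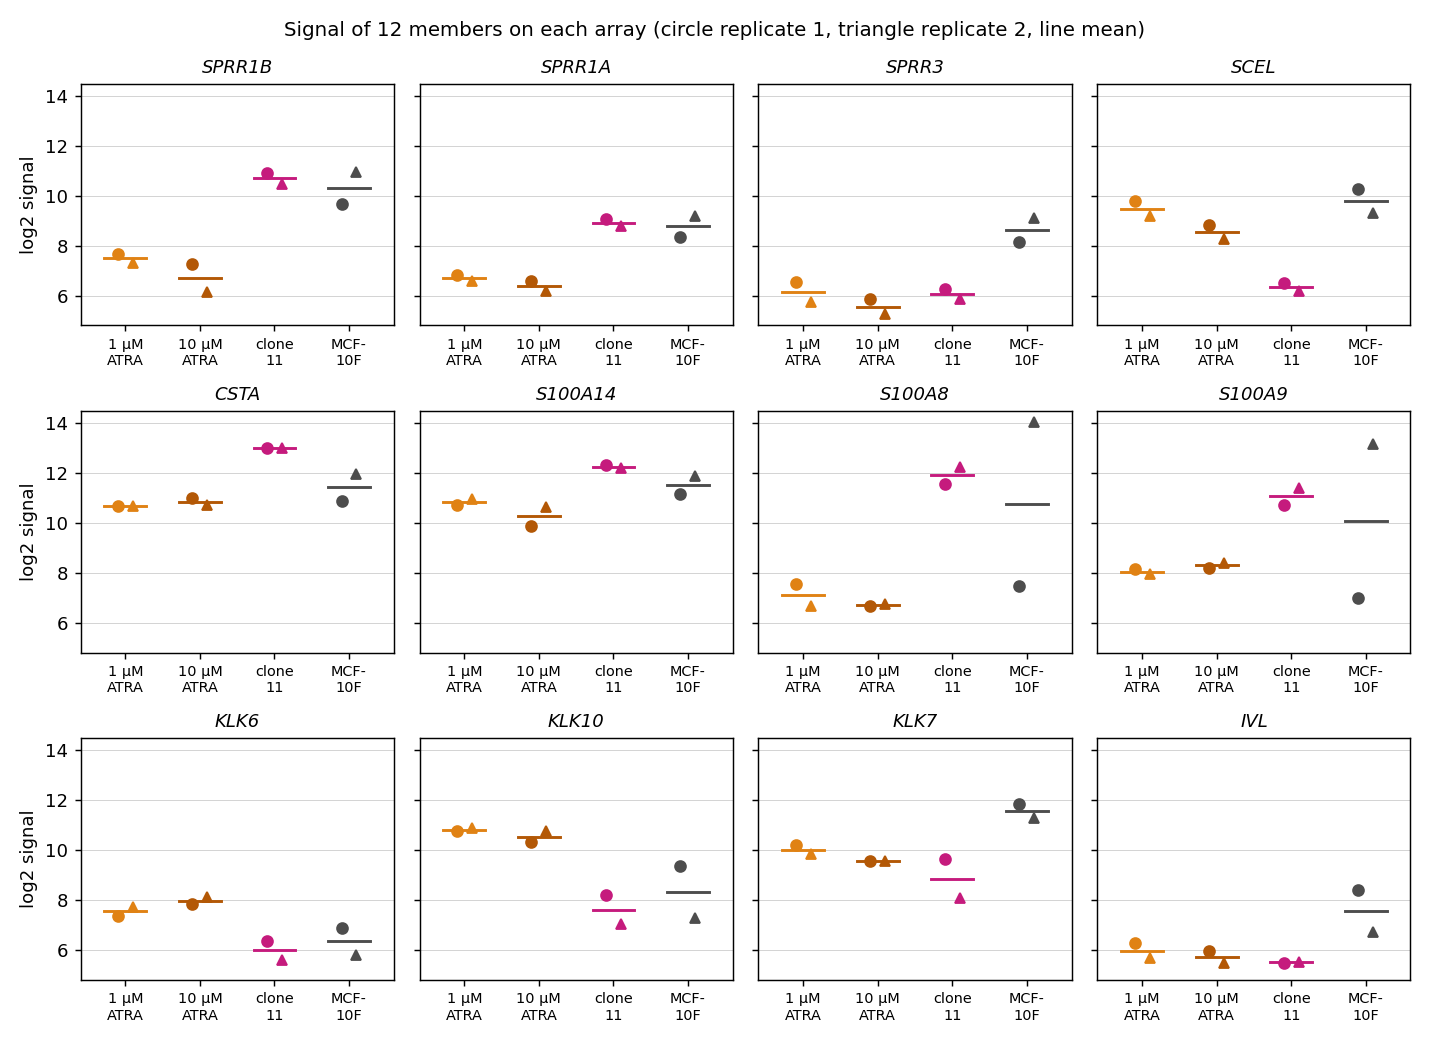
Log2 signal (vertical axis) of 12 members on each array by group (horizontal axis), with circles for replicate 1, triangles for replicate 2 and a line at the mean. SPRR1B and CSTA separate the ATRA arrays from the clone downwards and SCEL, KLK6 and KLK10 upwards, while the MCF-10F arrays of S100A8 span 7.49 to 14.04.

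The kallikreins, serine proteases that are encoded side by side on chromosome 19, held 2 of the 3 members that rose at 10 μM, and none of the 7 fell, where 3.94% of all genes rose and 3.89% fell. KLK6 had 7.38 and 7.70 at 1 μM, 7.83 and 8.13 at 10 μM, 6.34 and 5.61 in trMCF clone 11 and 6.89 and 5.81 in MCF-10F. KLK10, a kallikrein studied as a tumour suppressor in breast cells, had 10.76 and 10.87 at 1 μM, 10.32 and 10.74 at 10 μM, 8.20 and 7.03 in trMCF clone 11 and 9.36 and 7.29 in MCF-10F. For both genes the 4 ATRA arrays lay above all others. At 10 μM, KLK6 rose to a mean of 7.98, against 5.98 in the clone (SE of the difference 0.38, adjusted p = 0.0301), and KLK10 rose 7.56-fold against it (2.92, SE 0.65, adjusted p = 0.0461), and at 1 μM the differences were 1.56 (adjusted p = 0.125) and 3.20 (adjusted p = 0.0886). The dimmer probe set of KLK10 gave 1.43 at 1 μM (adjusted p = 0.135) and 1.30 at 10 μM (adjusted p = 0.0888).

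KLK5 and KLK7 are the pair best known for the shedding of horny cells, KLK7 being a chymotrypsin-like enzyme that KLK5 can activate. KLK5 had 10.61 and 10.56 at 1 μM, 10.10 and 10.39 at 10 μM, 9.81 and 8.67 in trMCF clone 11 and 10.13 and 8.64 in MCF-10F, with differences of 1.34 (adjusted p = 0.28) and 1.01 (adjusted p = 0.343) at 1 and 10 μM against the clone. KLK7 had 10.19 and 9.84 at 1 μM, 9.55 and 9.54 at 10 μM, 9.63 and 8.07 in trMCF clone 11 and 11.85 and 11.28 in MCF-10F. Its MCF-10F arrays stood above the other 6, and the difference of -2.71 in the clone fell just short of the threshold (adjusted p = 0.0517). The second probe set of KLK7 differed by -2.42 in the clone and lay further from the threshold (adjusted p = 0.123). KLK8, KLK11 and KLK13 passed the test in none of the comparisons, and the median difference of the 7 kallikreins was 1.17 at 1 μM and 0.70 at 10 μM against the clone, where the median gene differed by -0.06 and -0.01. All 7 were lower in trMCF clone 11 replicate 2 than in replicate 1, KLK7 by 1.57, KLK10 by 1.17 and KLK5 by 1.14. Both 10 μM arrays lay below clone replicate 1 in KLK7, KLK8 and KLK13. They lay above it in KLK5, KLK6 and KLK10, and on either side of it in KLK11.

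Secreted and surface proteins of the differentiated layers (SBSN, DMKN, CDSN, LY6D, LYPD3, MAL, EMP1 and RHCG) did not pass the test in any comparison. The 8 had median differences of -0.15 at 1 μM and 0.00 at 10 μM against the clone. Dermokine (DMKN) was higher on every ATRA array than on either clone array, by 0.61 at 1 μM and 0.37 at 10 μM on average (adjusted p = 0.211 and 0.354). LYPD3, a surface protein that binds laminins, ran the other way with -0.67 and -0.84 (adjusted p = 0.281 and 0.133). The probe sets of EMP1 did not move alike, for the third in brightness differed by 1.17 in the clone against MCF-10F and the brightest one by -0.15.

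FABP5, the epidermal fatty acid-binding protein, which can carry retinoic acid to the nucleus, was lower in every group derived from the clone than in MCF-10F. It had 9.74 and 9.83 at 1 μM, 9.74 and 9.68 at 10 μM, 10.33 and 10.95 in trMCF clone 11 and 11.76 and 12.48 in MCF-10F. The clone's arrays lay between those of ATRA-treated cells and MCF-10F. Against MCF-10F, FABP5 fell by 2.41 at 10 μM (SE 0.28, adjusted p = 0.0106), while the differences were -2.33 at 1 μM (adjusted p = 0.0595) and -1.48 in the clone (adjusted p = 0.064). CALML3 and CALML5, calmodulin-like proteins of epithelium, differed by at most 0.52 in size between the clone and the groups set against it.

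**Figure D4:**
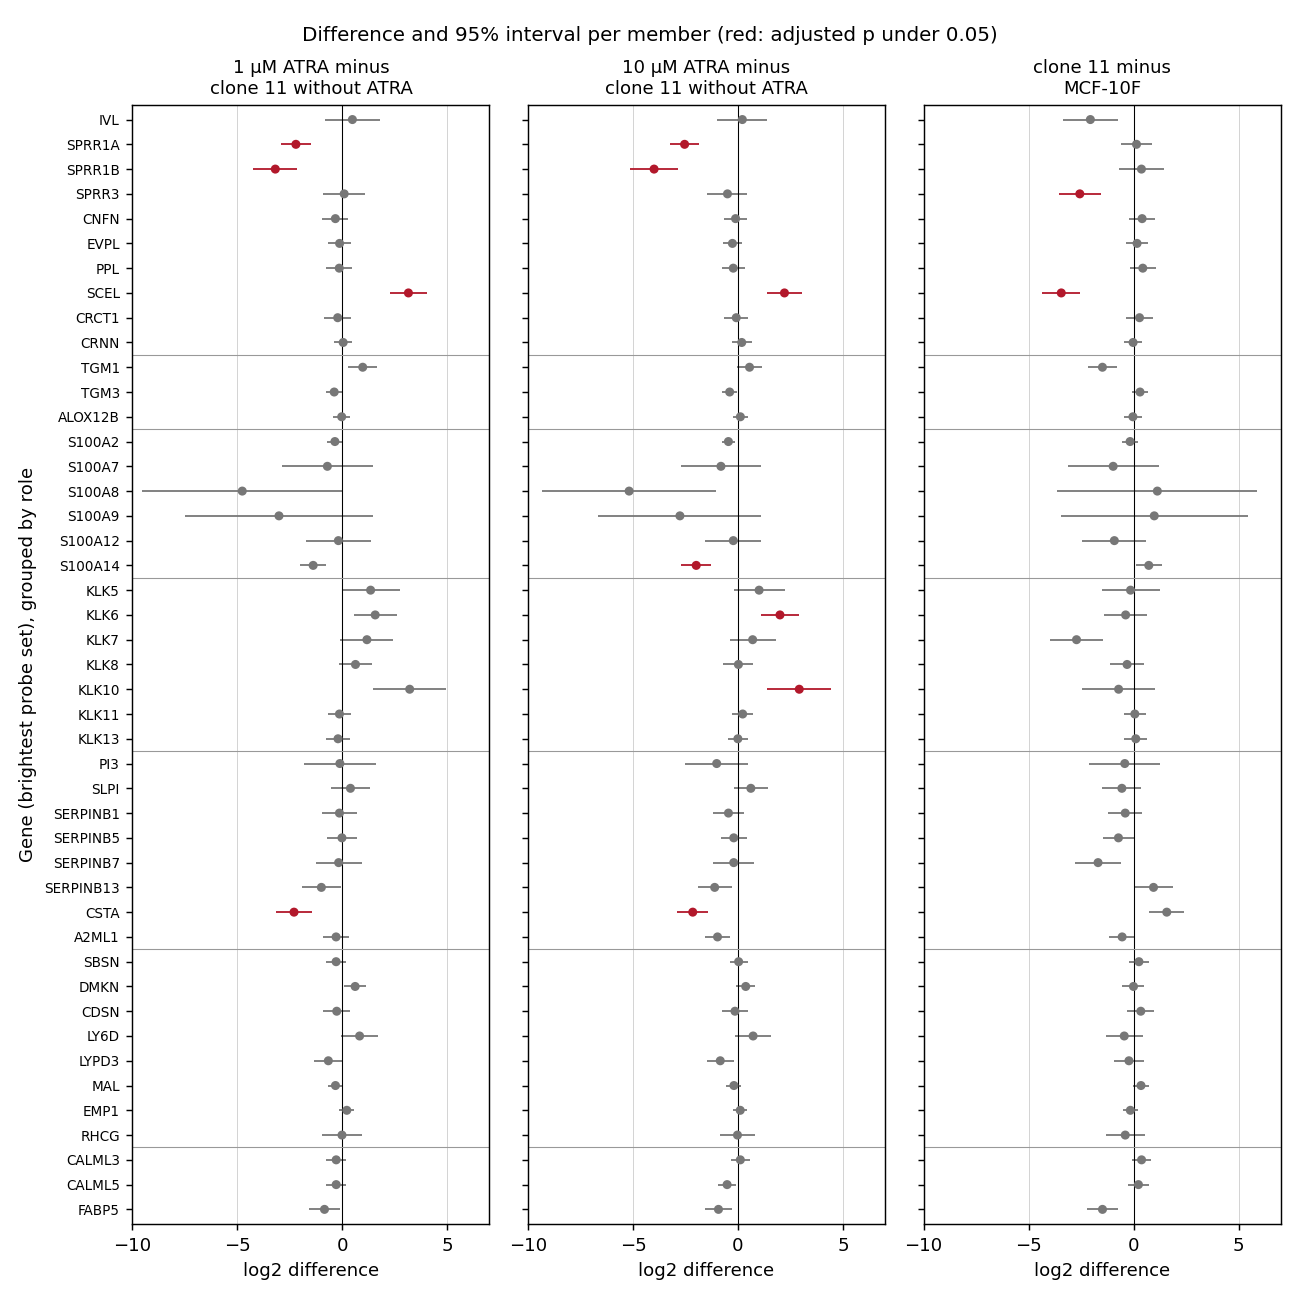
Log2 difference (horizontal axis) with its 95% interval for each of the 45 members (rows, grouped by role) at 1 μM ATRA minus trMCF clone 11, 10 μM ATRA minus trMCF clone 11, and trMCF clone 11 minus MCF-10F, in red where the adjusted p was under 0.05. The 4, 7 and 2 red points stand among intervals that mostly cross 0, and the S100A8 and S100A9 intervals are the widest in each panel.

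The clone differed from MCF-10F in few members past the test. In trMCF clone 11 against MCF-10F no member rose and 2 fell (SPRR3 and SCEL), which is 4.44% of the members against 1.88% of genes higher and 2.64% lower, a share not far from that of all genes. At a 2-fold difference and an unadjusted p under 0.05, CSTA was higher and 7 members (IVL, SPRR3, SCEL, TGM1, KLK7, SERPINB7 and FABP5) were lower, against 3.24% and 5.96% of genes. The median member differed by -0.14 and the median gene by 0.06.

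Cells given ATRA were also set directly against MCF-10F. At 1 μM no member passed the test in either direction, against 0.142% of genes higher and 0.47% lower, although 3 members were higher and 12 lower at an unadjusted p under 0.05, against 6.07% and 6.47% of genes. A fit of the 4 arrays compared called 1 member, FABP5, as lower and none as higher, against 1.03% and 0.47% of genes. At 10 μM no member rose and 5 fell (SPRR1A, SPRR1B, SPRR3, A2ML1 and FABP5), against 0.759% of genes higher and 1.81% lower. Here SPRR1B fell by 3.62 (adjusted p = 0.017), SPRR3 by 3.06 (adjusted p = 0.0163) and SPRR1A by 2.40 (adjusted p = 0.0119). A2ML1, an alpha-2-macroglobulin-like protease inhibitor, had 8.58 and 8.25 at 1 μM, 7.95 and 7.54 at 10 μM, 9.03 and 8.41 in trMCF clone 11 and 9.28 and 9.24 in MCF-10F, and fell by 1.52 at 10 μM (adjusted p = 0.0339). These comparisons share their MCF-10F arrays with that of the clone.

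The 2 doses could not be told apart in any member after adjustment. In 10 μM against 1 μM no member passed limma's test, against 0% of genes higher and 0% lower, and at an unadjusted p under 0.05 no member was higher and 2 were lower (A2ML1 by -0.67 and SCEL by -0.93), against 1.02% and 0.668% of genes. The 4 arrays of the 2 doses alone gave none after adjustment, and 3 higher and 8 lower at the unadjusted threshold, against 3.72% and 2.95% of genes. No member differed by 2-fold or more between the doses. For SPRR1B the 95% interval of the dose difference ran from -1.95 to 0.35, and for KLK10 from -1.81 to 1.24, so differences of more than 2-fold are within these intervals.

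**Figure D5:**
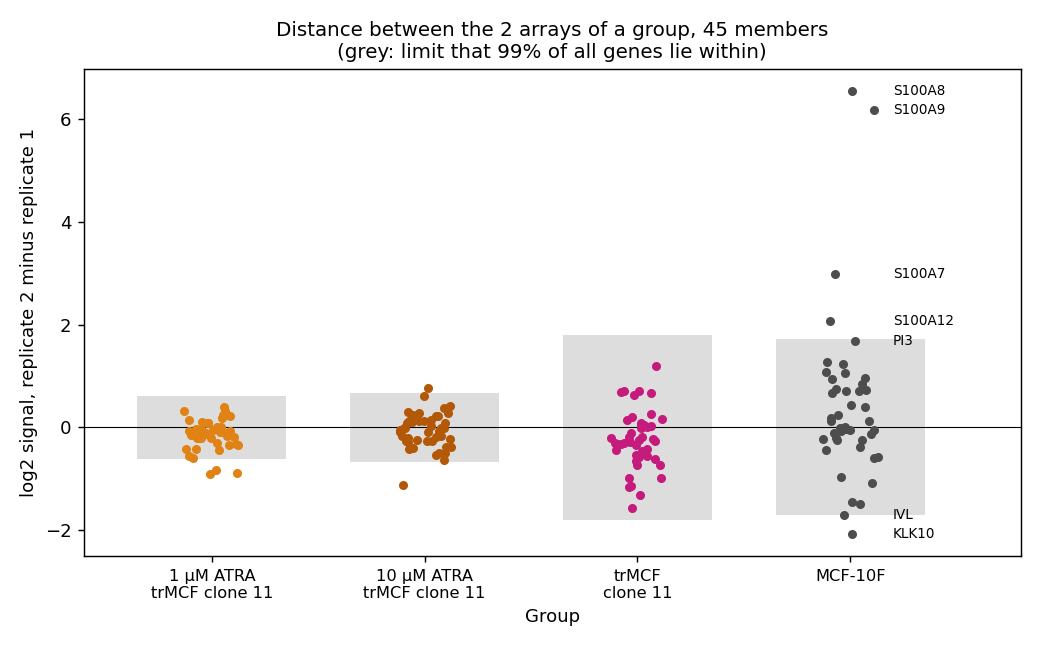
Log2 signal of replicate 2 minus replicate 1 (vertical axis) of the 45 members in each group, with a grey band that 99% of all 19775 genes lie within. In MCF-10F 5 members lie outside the band (S100A8, S100A9, S100A7, S100A12 and KLK10), S100A8 and S100A9 at more than 6.

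The distance between the 2 arrays of a group was itself uneven. In MCF-10F 14 members (31.1%) were over 2-fold apart, against 3.84% of all genes, while the counts were 0 at 1 μM (0.091% of genes), 1 at 10 μM (0.142%) and 5 in trMCF clone 11 (7.33%). MCF-10F replicate 2 was higher in S100A8 by 6.56, S100A9 by 6.18, S100A7 by 2.98, S100A12 by 2.07 and PI3, the elastase inhibitor elafin, by 1.69. MCF-10F replicate 1 was higher in KLK10 (-2.07), IVL (-1.70), KLK5 (-1.49) and SERPINB7 (-1.45, replicate 2 minus replicate 1). Outside the set CXCL6, a neutrophil chemokine, CFB, complement factor B, and LCN2, the iron-carrier-binding lipocalin, were higher in replicate 2 by 5.30, 5.03 and 4.32. Without MCF-10F replicate 2, S100A8 and S100A9 were called higher in the clone than in MCF-10F, and without MCF-10F replicate 1, S100A7 was called lower.

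Other genes of the same families were taken from lists, which were chosen with earlier results of these data known, so they are not an independent check. Their counts stand beside all genes, of which 1.88% rose and 2.64% fell in the clone against MCF-10F, 0.971% and 0.925% at 1 μM against the clone, and 3.94% and 3.89% at 10 μM against the clone. Of 26 measured cornified envelope and lipid barrier genes outside the set, none rose and 2 fell in the clone against MCF-10F (TGM2 by 2.76 and SPRR2B by 2.27). Against the clone, 1 rose at 1 μM (TGM5 by 1.10), and at 10 μM 2 rose (TGM2 by 2.41 and TGM5 by 1.13) and 2 fell (ABCA12, a lipid transporter of the epidermis, by 2.32 and CLIC3 by 1.74). TGM2, the tissue transglutaminase, had 8.55 and 7.84 at 1 μM, 8.31 and 8.15 at 10 μM, 6.18 and 5.46 in trMCF clone 11 and 9.08 and 8.09 in MCF-10F, so that like SCEL it was low in the clone alone. SPRR2B had 6.62 and 5.86 at 1 μM, 6.28 and 5.96 at 10 μM, 6.64 and 6.25 in trMCF clone 11 and 8.46 and 8.98 in MCF-10F, high in MCF-10F alone like SPRR3.

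Of 26 kallikreins, serpins, cystatins and related inhibitors outside the set, none rose and 2 fell in the clone (SERPINB8 by 2.02 and CST6 by 1.99), and the same 2 rose against the clone at 1 μM (by 0.93 and 2.20) and at 10 μM (by 0.73 and 2.39). CST6, cystatin M/E, an inhibitor of the proteases that process transglutaminases, had 10.70 and 10.57 at 1 μM, 10.69 and 10.96 at 10 μM, 8.52 and 8.35 in trMCF clone 11 and 10.39 and 10.46 in MCF-10F. CST6 thus had its lowest signals in the clone, where its relative CSTA had its highest. Of 13 other S100 genes, S100A3 fell in the clone by 1.46, none passed the test at 1 μM, and S100A4 fell by 1.28 at 10 μM.

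Of 26 measured transcription factors of squamous differentiation, none passed the test in the clone against MCF-10F. FOSL1, a Fos-family partner in AP-1, had 9.09 and 8.41 at 1 μM, 8.51 and 7.83 at 10 μM, 6.12 and 6.77 in trMCF clone 11 and 8.29 and 7.76 in MCF-10F, and rose at both doses, by 2.31 (adjusted p = 0.0453) at 1 μM and by 1.73 (adjusted p = 0.0379) at 10 μM. GRHL3, a grainyhead factor required for the skin barrier in mice, had 5.23 and 5.26 at 1 μM, 4.54 and 4.83 at 10 μM, 6.95 and 6.34 in trMCF clone 11 and 6.23 and 5.89 in MCF-10F, and fell by 1.96 at 10 μM (adjusted p = 0.00836), with -1.40 at 1 μM (adjusted p = 0.057). FOSL1 and GRHL3 thus went in opposite directions at 10 μM. Of the same list, FOSL2, FOS, JUN and JUNB had lower means at both doses than in the clone, and none passed the test against it. FOSL2 had means of 9.49 and 9.17 at 1 and 10 μM against 10.58 in the clone, and JUNB 8.02 and 7.91 against 8.58. FOS had 11.32 and 11.37 against 11.88, and JUN 10.20 and 10.35 against 10.61. The median difference of the 26 factors from the clone was -0.30 at 1 μM and -0.31 at 10 μM.

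Each of these counts rests on 2 arrays a group and moved with single arrays. Without either 1 μM array no member was called at 1 μM against the clone, without trMCF clone 11 replicate 1 only SERPINB13 was, and without either MCF-10F array 8 were, among them S100A8 and S100A9. At 10 μM against the clone no member was called without either 10 μM array and 4 (SPRR1A, SPRR1B, SCEL and CSTA) without either 1 μM array. In the clone against MCF-10F, 0 members were called without either 1 μM array, 1 without MCF-10F replicate 1, 6 without MCF-10F replicate 2 and 4 without trMCF clone 11 replicate 2. At 10 μM against MCF-10F the count was 14 without MCF-10F replicate 1, 8 without either clone array, 3 without either 1 μM array and 0 without either 10 μM array. At 1 μM against MCF-10F, 6 were called without MCF-10F replicate 1 and 1 each without MCF-10F replicate 2 and without either clone array. Where 1 array of a compared group was left, it was assumed to vary like the other groups.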

How the data were processed

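RNA of 8 samples, 2 in each of 4 groups taken from the sample titles, was hybridised to Affymetrix U133 Plus 2.0 arrays. The deposited values are linear signal intensities per probe set, which the authors had summarised and scaled. Their methods mention MAS 5.0 (scaled globally) as well as Iterative Plier 16, and the sources used here do not tell which gave these values. Detection calls and single probe values were not used here. With 2 arrays in a group, precision is limited by their number.

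The table held 54675 probe sets. Leaving out 62 controls, 54613 were tested as log2 values without further scaling. In the annotation 41091 name 1 gene, 1801 several and 11721 none, and the brightest of a gene's single-gene probe sets stood for it. Comparisons used lmFit and eBayes of limma 3.58.1 (R 4.3.3) with Benjamini-Hochberg adjustment, on the 6 arrays of 1 μM ATRA, trMCF clone 11 and MCF-10F, and on all 8 arrays where 10 μM ATRA was compared. The script was tested on simulated data. The members and gene lists were chosen with earlier results of these data known. Any member could be named. Values on every array were given for members with an adjusted p under 0.05, or with groups that do not overlap and a 2-fold difference (at most 10 per comparison), for the 3 brightest members, and for members of a named gene's family. From other lists at most 4 genes with the smallest p under the threshold were named per list and comparison. The CXCL6, CFB and LCN2 values were chosen after they were seen. Alternatives were another call rule, other arrays in the fit, quantile normalization, a filter on dim probe sets, the replicate number as a block, a floor of 16, a robust prior with a trend, other probe set choices, and each array left out in turn. Promoters came from RefSeq (GRCh38.p14) and were aligned with Biopython 1.88. Figures were drawn with matplotlib 3.10.9.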

Additional observations from a re-analysis of the deposited data

How the results depend on the processing

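Counts of called members under other settings are given with the main count first. In trMCF clone 11 against MCF-10F the main count was 2, and it was 8 at a 2-fold difference and unadjusted p, 6 in a fit of all 8 arrays, 0 with the 4 arrays compared, 4 without the dimmest probe sets and 0 with a floor of 16. At 1 μM against trMCF clone 11 it was 4, with 9 at the fold rule, 8 with the 4 arrays compared, 1 with a replicate block, 0 with a floor of 16 and 10 with the clone arrays alone (a fit chosen after seeing the data). At 10 μM against trMCF clone 11 it was 7, and 0 with a floor of 16. At 1 μM against MCF-10F it was 0, with 9 at the fold rule, 4 with all 8 arrays, and 1 each with the 4 arrays compared, a trend and robust prior, and a replicate block. At 10 μM against MCF-10F it was 5, with 13 at the fold rule, 0 with a floor of 16 and 3 without shared-target probe sets. In 10 μM against 1 μM every setting gave 0.

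With 1 array left out, the counts ranged from 0 to 6 (clone against MCF-10F), 0 to 8 (1 μM against the clone), 0 to 10 (10 μM against the clone), 0 to 6 (1 μM against MCF-10F) and 0 to 14 (10 μM against MCF-10F), and stayed at 0 between the doses. The floor of 16 left the differences of bright genes as they were and lowered limma's prior degrees of freedom from 2.91 to 0.443 in the fit of 6 arrays, and the adjusted p of SCEL in the clone was then 0.105. Without shared-target probe sets 2 differences changed sign at 1 μM against the clone, SPRR1A to 0.14 and SERPINB13 to 0.15. The pairing by replicate number was checked by the correlation of deviations from the group means over the 6 pairs of groups. It was 0.348 between the 2 doses and lay between -0.065 and 0.106 in the other pairs. The numbers were not taken to pair the samples in the main fits. In the comparison of the doses, the fit with a replicate block also called 0 members. The block left 1 of 4 calls at 1 μM against the clone, SCEL, with 8 at 10 μM against the clone and 3 in the clone against MCF-10F. Of the single-gene values under all settings, 440 kept direction and side of the threshold, 58 gained and 91 lost the call. What caused the calls to change between settings was not tested.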

Other observations

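The genes with the widest gaps between the 2 MCF-10F arrays included several outside the squamous set. PDZK1IP1 had a log2 signal of 7.27 in MCF-10F replicate 1 and 11.98 in replicate 2, and SERPINB4, a serpin of squamous epithelium, had 3.78 and 8.44. CP, the copper carrier ceruloplasmin, had 4.25 and 8.84. SPINK6, an inhibitor of kallikreins, went the other way, with 9.74 in replicate 1 and 5.46 in replicate 2. LCN2 had 11.41 and 10.95 at 1 μM and 11.19 and 11.35 at 10 μM, against 8.91 and 8.02 in trMCF clone 11, and all 6 of these arrays lay within the range of the MCF-10F arrays (7.93 and 12.25). For SERPINB4 the cells given ATRA lay at 4.15 and 3.95 at 1 μM and 4.79 and 3.82 at 10 μM, near MCF-10F replicate 1. The clone lay at 4.61 and 5.97, so the arrays of 10 μM and the clone overlapped. The ATRA signals of SERPINB4 were dim, at most 27.7 units, under the array medians. These values were chosen after they were seen, for the size of the gap, and what sets the 2 MCF-10F arrays apart was not tested.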
